A study of Mus musculus with 12 samples.

Results

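The RNA exosome is the multiprotein machine that degrades RNA from its 3′ end, and this account follows the transcripts of its 10 named subunits, *Exosc1* to *Exosc10*, through mouse oocyte maturation. The members were taken by gene symbol, with no use of their values, and all 10 were found among the 56691 genes of the count table. RNA of WT and *Alkbh5*-/- (KO) oocytes had been sequenced at the germinal vesicle (GV) stage, at germinal vesicle breakdown (GVBD) and at metaphase II (MII), giving 12 libraries in 6 groups of 2. ALKBH5 removes the N6-methyladenosine mark from RNA, and the study asked how its loss affects the decay of maternal transcripts. The KO is a germline deletion of the first *Alkbh5* exon with its start codon, so every tissue of the animal lacked the gene. Both genotypes were C57BL/6, and the oocytes came from gonadotropin-primed juvenile females. Each library was a pool of denuded oocytes, cultured in vitro and taken by time in culture. So a KO library named for GVBD or MII could include oocytes that had not reached that stage, and there the effects of stage and genotype cannot be told apart. The study calls the libraries of a group biologically independent, but the labels do not say whether they came from separate females, so p-values measure the spread between these libraries.

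The exosome core is a barrel through which RNA is threaded. Its ring is built from 6 members, *Exosc4* to *Exosc9*, whose proteins resemble the bacterial enzyme RNase PH but have lost its activity in mammals. Its cap is built from 3 members, *Exosc1*, *Exosc2* and *Exosc3*, which carry RNA-binding domains and sit at the entry of the channel. *Exosc10* encodes an associated nuclear 3′ to 5′ exoribonuclease, and the other nucleases, DIS3 in the nucleus and DIS3L in the cytoplasm, are separate genes. The complex matures ribosomal RNA, removes unstable nuclear transcripts and degrades cytoplasmic mRNA. In mouse oocytes EXOSC10 is known to be needed for the transition from growth to maturation. A GV oocyte is transcriptionally silent by the end of growth, and from then on its mRNAs are stored, polyadenylated, deadenylated or degraded.

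The ring genes are spread over the genome (GENCODE M21 gene models on GRCm38). *Exosc4* lies on chromosome 15 (76327397 to 76330677), *Exosc5* on chromosome 7 (25659164 to 25671368) and *Exosc6* on chromosome 8 (111056339 to 111057664). *Exosc7* lies on chromosome 9 (123113215 to 123136129), while *Exosc8* (54728678 to 54735393) and *Exosc9* (36552606 to 36565727) are both on chromosome 3. The cap genes are *Exosc1* on chromosome 19 (41922292 to 41933423), *Exosc2* on chromosome 2 (31670715 to 31681349) and *Exosc3* on chromosome 4 (45316613 to 45342732). *Exosc10* is also on chromosome 4 (148558429 to 148582401) and has the most exons of the members, 25. *Exosc6* is a single-exon gene, and 100% of it lies within exons of *Aars* on the same strand, so its counts, 0 to 37 per library, could not be separated from that gene with certainty. *Exosc4* shares 19.8% of its exon bases with *Oplah* on the opposite strand, *Exosc2* 12.4% with *Gm13427*, *Exosc9* 10.8% with *Ccna2* and *Exosc5* 5.66% with *Tmem91*. *Exosc3* shares 4.0% with *Dcaf10* and *Exosc8* 2.05% with *Supt20*, also on the opposite strand. Whether counting used strand is not given in the sources used here, so reads in these stretches could not be told apart. The partner of *Exosc4* had few counts of its own, 0 to 79, and that of *Exosc9* had many, 1236 to 5147. That of *Exosc8* had 3009 to 31954, that of *Exosc3* 76 to 363 and that of *Exosc5* 13 to 101.

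In oocytes the length of the poly(A) tail is set at the 3′ end of the mRNA, and by the study's methods the libraries were primed on that tail, so the 3′ ends of the members are shown before their values. Principal coding transcripts were searched on the sense strand for the cytoplasmic polyadenylation elements TTTTAT and TTTTAAT, which bind CPEB proteins, and for the polyadenylation signals AATAAA and ATTAAA. Within 100 bases of the annotated 3′ end, TTTTAT was present in 3 of the 9 members tested between GV and MII, *Exosc3*, *Exosc4* and *Exosc8*, and TTTTAAT in none. Either element stood in that window in 18.9% of the 13696 tested genes with a 3′ UTR. *Exosc4* and *Exosc8* are 2 of the 3 members that fell by MII in WT, and *Exosc3* is the 1 with a value above 0. *Exosc5*, the other that fell, held no element, and a link between element and value was not tested. The 30 transcript bases around each of the 3 matches are given 5′ to 3′ with the element in capitals.
Exosc3: aattataaaaacTTTTATataataaacttt
Exosc4: tcagccaaataaTTTTATgtttgaggatca
Exosc8: actgcacaggctTTTTATactaaataaata
The printed stretch of *Exosc3* is at chr4:45316625-45316654 on the minus strand, and its TTTTAT lies 24 bases before the 3′ end. The stretch of *Exosc4* is at chr15:76330604-76330633 on the plus strand, with the element 56 bases before the end, and that of *Exosc8* at chr3:54728702-54728731 on the minus strand, with the element 36 bases before it. None of the 3 matches shares a base with AATAAA or ATTAAA. *Exosc1* held 1 TTTTAT further inside its 3′ UTR, 105 bases before the end. *Exosc6*, which was not tested between GV and MII, held 1 TTTTAT 68 bases before its end. Anywhere in the 3′ UTR, 4 of the 9 members held an element, against 59.4% of the tested genes, and against 35.3% of the 6830 genes whose 3′ UTR was no longer than the longest among the members, 962 bases. AATAAA or ATTAAA stood within the last 100 bases of 7 members, against 80.9% of the tested genes. *Exosc1* and *Exosc5* had neither in the transcripts used, but each has another annotated form with 1 ATTAAA in that window. No member held the AU-rich element TATTTAT, which 27.5% of the tested genes did.

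Total counts per library, in units of 1e6, ranged from 28.6 to 40.2. ERCC spike-in RNA, added before reverse transcription, took 221927 to 838409 counts, and endogenous counts per ERCC count ranged from 47.0 in WT MII replicate 2 to 127.7 in KO GV replicate 1. *Alkbh5* itself had 54 to 143 counts in KO libraries and 5355 to 10181 in WT libraries, as labelled. All 10 oocyte markers examined, such as *Gdf9* and *Zp3*, were above 0 in every library, with a summed 12000 to 25900 counts per 1e6 counts of the library (CPM). The 12 cumulus and granulosa cell markers summed to 40.4 to 87.7 CPM. The 8 blood and immune cell markers were uneven. Among WT libraries they summed to 24.4 and 4270 CPM (GV), 2260 to 2440 (GVBD) and 15.9 to 45.1 (MII). Among KO libraries they summed to 2360 to 4150 (GV), 14.9 to 16.9 (GVBD) and 17.8 to 717 (MII). Haemoglobin genes supplied most of the high sums. The 6 heart muscle markers ranged from 79.1 to 969 CPM, and *Tnnt2*, *Actc1* and *Ankrd1* were at 0 in KO GVBD replicate 1 and in both KO MII libraries.

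The subunits of this complex had very unequal transcript levels, although those of the core, *Exosc1* to *Exosc9*, assemble in equal numbers as proteins. In WT GV oocytes *Exosc8*, a ring subunit, was highest, with 10300 and 10380 spike-in scaled counts per kilobase of transcript in the 2 libraries. A scaled count is the count divided by the ERCC count of its library and multiplied by the mean ERCC count of all libraries. *Exosc7*, another ring subunit, followed with 6042 and 6190. The cap subunit *Exosc1* had 1781 and 2380 and came after them. *Exosc9* (mean 581.8) and *Exosc3* (453.3) came next, then *Exosc10* (225.5) with *Exosc2* (187.1), *Exosc5* (119.3) with *Exosc4* (102.4), and last *Exosc6* (6.13). The libraries of *Exosc10* and *Exosc2* overlapped, as did those of *Exosc5* and *Exosc4*, and the other neighbours in this order did not overlap. Between *Exosc8* and *Exosc4*, the ninth, the level per kilobase differed by 101-fold. When the length of all annotated exons was used in place of the principal transcript, *Exosc3* and *Exosc9* changed places and so did *Exosc4* and *Exosc5*. On that scale *Exosc8* exceeded 95.9% of the 16500 coding genes detected in WT GV, *Exosc10* 72.8%, *Exosc5* 46.3% and *Exosc6* 21.7%.

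**Figure D1:**
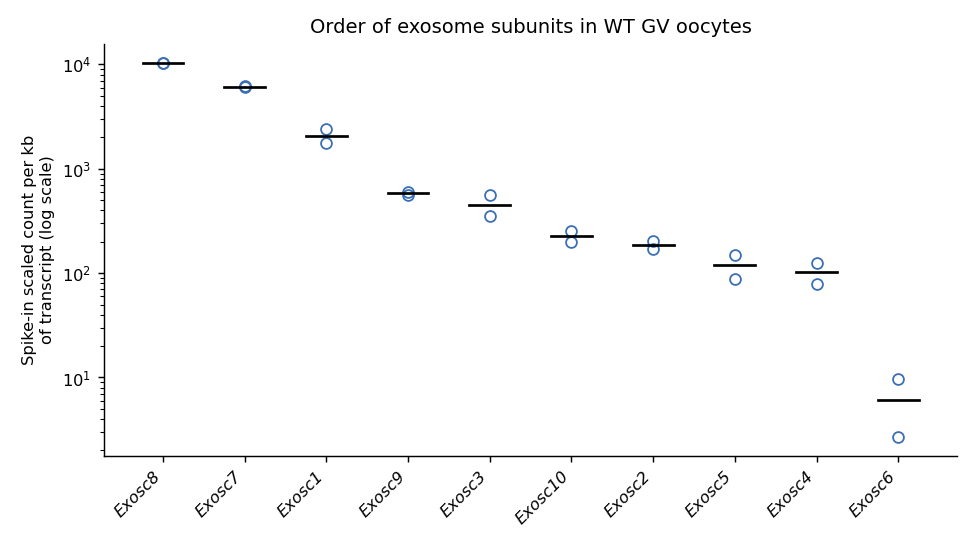
Spike-in scaled counts per kilobase of principal transcript (log scale) of the 10 subunits in WT GV oocytes, ordered by their mean. Circles are the 2 libraries and lines their mean, from 10340 for *Exosc8* down to 6.13 for *Exosc6*.

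*Exosc8* and *Exosc7* together made up most of what was counted for the complex. *Exosc8* held 37.8 to 65.3% of all member counts of a library and *Exosc7* 14.4 to 33.1%. For WT, the share of *Exosc8* was 53.7 to 54.9% among GV libraries, 64.0 to 65.3% after breakdown and 43.5 to 45.7% by MII. The KO shares were 54.8 to 56.5%, 55.1 to 57.8% and 37.8 to 49.2% in the same order of stages. In both genotypes the MII libraries thus had the lowest shares of *Exosc8*, and the WT GVBD libraries had the highest of all. Summed over the 10 members, transcripts of the complex took 0.0471 to 0.0658% of the endogenous counts.

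Among ring subunits, *Exosc8* counts in WT were 11281 and 9573 at the GV stage, 14571 and 11898 after breakdown, and 7990 and 8963 by MII. The KO counts were 9895 and 12903 at the GV stage, 10037 and 13074 after breakdown, and 6796 and 9003 by MII. After spike-in scaling the MII libraries of both genotypes, 4320 to 6801, were below all 8 GV and GVBD libraries, 10540 to 19540. Scaled counts of *Exosc7* in WT were 6362 and 6518 (GV), 4680 and 2374 (GVBD), then 3722 and 2887 (MII). Its KO values were 8040 and 6800 (GV), 5017 and 5874 (GVBD), then 5944 and 4215 (MII). Its highest libraries were thus the GV ones of both genotypes. *Exosc9* varied little, with 640 to 956 counts in the 12 libraries, a 3.01-fold range after scaling.

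The remaining ring members had low counts and the widest ranges. WT libraries held 190 and 101 counts of *Exosc4* at the GV stage, 127 and 149 after breakdown, and 87 and 25 by MII. KO libraries held 217 and 340, then 142 and 298, then 126 and 67 at the same stages. The scaled range of *Exosc4* was 36.0-fold, with WT MII replicate 2 lowest and KO GV replicate 2 highest. For *Exosc5* the WT counts were 125 and 179 at the GV stage, 24 and 64 after breakdown, and 56 and 30 by MII. The KO counts of this gene were 118 and 201, then 122 and 225, then 22 and 9. WT GVBD thus stood near WT MII for this gene, while KO GVBD stood near both GV groups, and the scaled range was 39.8-fold. *Exosc6* had at most 12.7 scaled counts in any WT library and at most 40.8 in any KO library. Both WT MII libraries and KO MII replicate 2 had 0 counts of it, which allows up to 3 counts each by counting error alone.

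Among cap subunits, *Exosc1* had 999 to 2408 counts, and its scaled counts were lowest in KO MII replicate 2 (715.6) and highest in WT GVBD replicate 1 (2776). *Exosc2* counts were 288 and 205 (GV), 175 and 237 (GVBD), then 433 and 277 (MII) among WT libraries. Among KO libraries they were 326 and 344 (GV), 450 and 236 (GVBD), then 619 and 388 (MII). After scaling, *Exosc2* was between 133.5 and 345.4 in WT and between 260.0 and 740.0 in KO. *Exosc3*, the third cap subunit, had 319 and 424 counts (GV), 686 and 540 (GVBD) and 1105 and 1398 (MII) among WT libraries. Its KO counts were 643 and 673 (GV), 701 and 858 (GVBD), then 698 and 900 (MII). The WT GV libraries were thus the lowest for this subunit before scaling, and the WT MII libraries the highest. *Exosc10*, the nuclear exoribonuclease, had 320 to 778 counts, with a 4.30-fold scaled range whose lowest library was KO MII replicate 2.

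**Figure D2:**
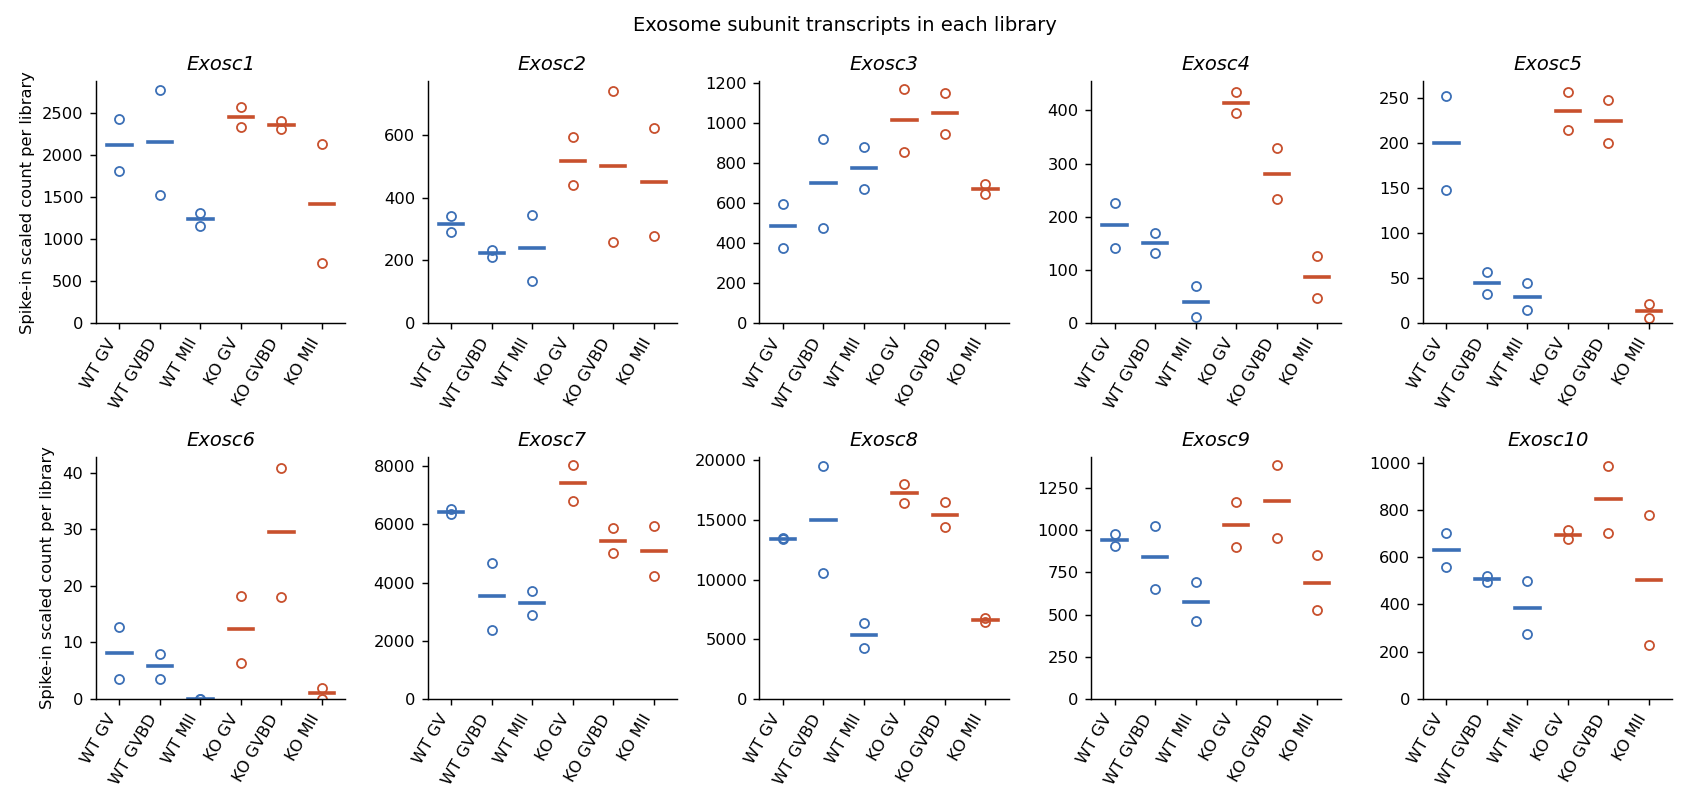
Spike-in scaled counts of each subunit in each library (linear axes from 0, 1 scale per gene). Circles are libraries and lines group means of 2 libraries, WT in blue and KO in orange; the group means are lowest at MII in both genotypes for all members but *Exosc2* and *Exosc3*, and *Exosc5* at GVBD has 32.2 and 56.7 in WT against 200.6 and 247.9 in KO.

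The comparison of MII with GV in WT follows the decay of maternal transcripts. *Exosc4*, *Exosc5* and *Exosc8*, all ring subunits, fell, and the other 6 tested members did not pass the threshold of an adjusted p under 0.05 with at least a 2-fold difference. These 3 of 9 tested members were set against 30.5% of all 18816 tested genes lower at MII and 0.393% higher, a share near that of genes in general. *Exosc5* fell from 200.4 ± 73.6 to 29.6 ± 21.4 scaled counts (SD, n = 2), a log2 fold change of −2.77 ± 0.73 (SE, adjusted p = 0.000884 by edgeR). *Exosc4* fell from 183.9 ± 58.7 to 40.7 ± 40.6, a log2 fold change of −2.19 ± 0.71 (adjusted p = 0.00951 by edgeR). *Exosc8* fell from 13440 ± 81.3 to 5346 ± 1452, a log2 fold change of −1.33 ± 0.47 (adjusted p = 0.018 by edgeR). For each of the 3, both MII libraries were below both GV libraries, as they were for every other tested member but *Exosc2*, whose groups overlapped, and *Exosc3*. Of all tested genes 15503 had a value below 0, and how many had libraries apart in this way was not counted. *Exosc7* (−0.96 ± 0.48) had an adjusted p of 0.113, and *Exosc1* (−0.78), *Exosc10* (−0.71), *Exosc9* (−0.71) and *Exosc2* (−0.40) had adjusted p from 0.245 to 0.667 by edgeR. *Exosc3*, a cap subunit, was the 1 tested member with a value above 0, at 0.67 ± 0.52 (adjusted p = 0.362 by edgeR), and its MII libraries, 881.3 and 673.7, were above its GV libraries, 378.5 and 597.9. By the study's methods cDNA was primed on poly(A) from a pool of oocytes per tube, so fewer oocytes, less RNA per oocyte and shorter tails cannot be told apart.

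Most genes had lower values at MII. Under spike-in scaling the median over all tested genes was −1.06 (log2 fold change), and that over the 9 members was −0.78. *Exosc4*, *Exosc5* and *Exosc8* were the 3 members below the median of all genes. After TMM scaling, which sets a typical gene near 0 (median −0.14), 5 of 9 members were above 0 and the calls were *Exosc3*, higher by 1.64 ± 0.26 (adjusted p = 0.00895 by edgeR), and *Exosc5*, with −1.93 ± 0.53 (adjusted p = 0.0411). On that scale 8.47% of all tested genes were called higher and 16.2% lower. *Exosc4* (−1.46, adjusted p = 0.176) and *Exosc8* (−0.40, adjusted p = 0.145) then did not pass. The calls also depended on having both libraries of a group. With 1 library left in a group, the spread came from the other group and the lone library was assumed to vary like it. Without WT GV replicate 2, the one high in blood markers, 0 members passed by edgeR, with −2.48 for *Exosc4* (adjusted p = 0.0688), −2.33 for *Exosc5* (0.104) and −1.32 for *Exosc8* (0.468, its SE having grown from 0.47 to 0.97). Without WT GV replicate 1 *Exosc5* alone passed, and *Exosc4* had −1.82 (adjusted p = 0.255) and *Exosc8* −1.34 (0.431). The size for *Exosc8* thus stayed near that with both libraries, and the sizes given for *Exosc4* and *Exosc5* moved more. The shares of all genes called lower in these fits were 13.6 and 14.0%. Without WT MII replicate 2 *Exosc8* alone passed, and *Exosc4* had −1.40 (adjusted p = 0.198) and *Exosc5* −2.16 (0.106 by edgeR). Without WT MII replicate 1 *Exosc4* had −3.92 and *Exosc5* −3.78, and the members called were 5, with *Exosc7* (−1.16, adjusted p = 0.023) and *Exosc9* (−1.03, 0.0497) added, beside 26.0% of all genes lower.

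In KO, 0 of 9 tested members passed between GV and MII by edgeR, where 3.28% of all 18777 tested genes were called lower and 0.00533% higher (615 and 1 genes, or 727 and 224 after TMM scaling). At an unadjusted p under 0.05 there were 3 members, again *Exosc4*, *Exosc5* and *Exosc8*, where 4626 of all genes were. DESeq2 called 2, *Exosc4* and *Exosc5*, where it called 16.3% of all genes lower, so these counts were not read as particular to the members. *Exosc5* had 214.8 and 256.4 scaled counts at GV and 22.0 and 6.45 at MII, a log2 fold change of −4.05 ± 1.01 (adjusted p = 0.0543 by edgeR). *Exosc4* had −2.25 ± 0.83 (adjusted p = 0.132) and *Exosc8* −1.38 ± 0.52 (adjusted p = 0.137). For these 3, and for every other tested member but *Exosc2* and *Exosc10*, both MII libraries were below both GV libraries. In KO 16316 of all tested genes had a value below 0, and libraries apart in this way were again not counted over all genes. *Exosc4*, *Exosc5* and *Exosc8* were also the 3 members below the median of all genes in KO, −1.17, and the median of the members was −0.60. With TMM scaling the 3 again lay below the median in both genotypes, although with median-of-ratios scaling *Exosc8* did not in KO. With both libraries of each group kept, *Exosc5* passed under 6 other settings, among them TMM scaling (−3.13, adjusted p = 0.0485) and the replicate block (−4.25, adjusted p = 0.0173 by edgeR). Of all genes 3.87% were called lower after TMM scaling and 13.1% with the replicate block. Without KO MII replicate 1, where replicate 2 stood alone at MII and the spread came from the GV libraries, 5 members were called by edgeR, *Exosc1*, *Exosc4*, *Exosc5*, *Exosc8* and *Exosc10* (adjusted p from 1.12e-05 to 0.00487), but so were 53.9% of all genes lower. Without KO MII replicate 2 *Exosc4*, *Exosc5* and *Exosc8* were called (adjusted p 0.0392, 0.00455 and 0.004 by edgeR), beside 16.5% of all genes lower. The KO MII libraries differed in their blood marker sum, 17.8 and 717 CPM, and in the number of genes detected, 19837 in replicate 2 being the lowest of all libraries. The part of these differences in the result was not tested.

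**Figure D3:**
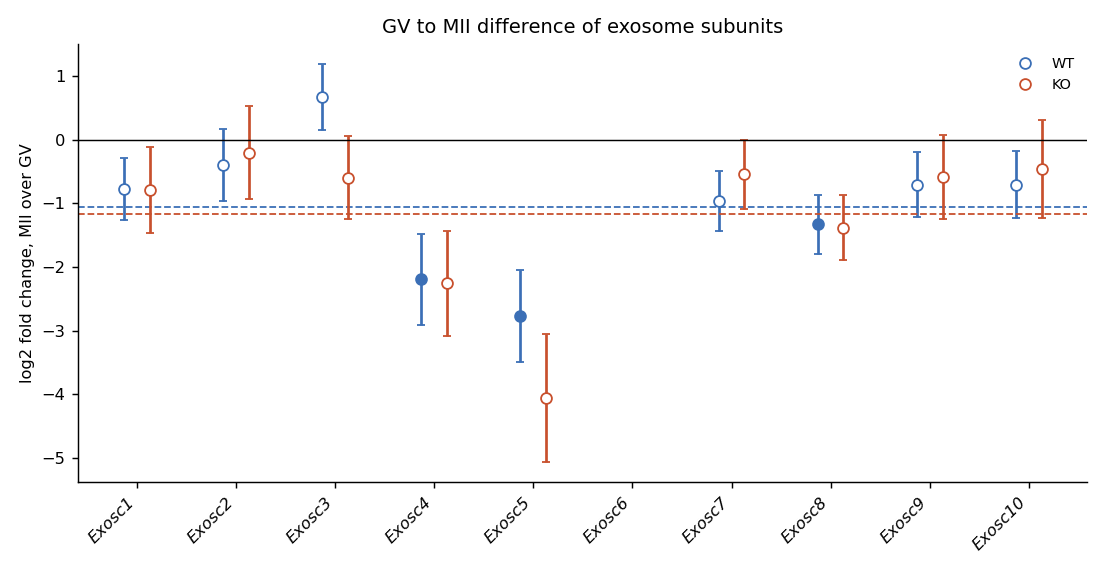
Log2 fold change between MII and GV (points, with SE bars) of each subunit in WT (blue) and KO (orange) by edgeR with spike-in scaling; filled points passed the threshold and dashed lines are medians of all tested genes. *Exosc4*, *Exosc5* and *Exosc8* lie below both medians, *Exosc3* has 0.67 in WT and −0.60 in KO, and *Exosc6* was too low to test.

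Whether the change from GV to MII differed between genotypes was tested as an interaction. None of the 10 members passed (edgeR, lowest adjusted p = 1), 0 had an unadjusted p under 0.05, and DESeq2 called 0. Of all 20807 tested genes 0.0% were called higher and 0.0% lower by edgeR, although 1197 had an unadjusted p under 0.05, against 91 higher and 63 lower by DESeq2 and 63 higher and 8 lower by edgeR after TMM scaling. Apart from *Exosc6* (2.60 ± 2.54), which has almost no counts, the values furthest from 0 were those of *Exosc5* (−1.29 ± 1.14) and *Exosc3* (−1.27 ± 0.71). *Exosc1*, *Exosc4* and *Exosc8* had −0.01 ± 0.76, −0.07 ± 1.19 and −0.05 ± 0.57. The standard errors ranged from 0.57 to 2.54 on the log2 scale, so a 2-fold genotype difference in the change was not detectable with 2 libraries per group.

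GVBD marks the resumption of meiosis. In WT 0 of 9 tested members passed against GV by edgeR, beside 0.0409% of 19566 genes called higher and 0.0102% lower, and DESeq2 also called 0. *Exosc5* alone had an unadjusted p under 0.05, where 1223 of all genes were. Its scaled counts were 148.3 and 252.4 at GV and 32.2 and 56.7 at GVBD (−2.16 ± 0.62, adjusted p = 0.418 by edgeR). Both GVBD libraries of this gene were under both GV libraries, as they also were for *Exosc2*, *Exosc7* and *Exosc10*. Libraries apart in this way were not counted over all genes. In KO 0 of 10 members passed by edgeR or DESeq2 and 0 had an unadjusted p under 0.05, beside 0.0367% of 19064 genes called higher and 0.184% lower, and *Exosc5* had −0.07 ± 0.42. These comparisons use the same GV libraries as those with MII.

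At GV the comparison of KO with WT asks whether the stock of transcripts built during growth already differs. No member passed, 0 of 10 by edgeR, beside 0.0565% of 19452 genes called higher and 0.0411% lower (11 and 8 genes, or 9 and 11 after TMM scaling). All 10 values were above 0 with a median of 0.30, below the median of all genes, 0.36, and after TMM scaling 5 of 10 were above 0. Under spike-in scaling 14135 of all tested genes were above 0. *Exosc4* had 225.4 and 142.4 scaled counts in WT and 395.1 and 433.8 in KO (1.17 ± 0.37, adjusted p = 0.204 by edgeR). *Exosc3* had 378.5 and 597.9 in WT and 1171 and 858.6 in KO (1.06 ± 0.33, adjusted p = 0.203). The KO libraries of both genes were above the WT libraries, as they also were for *Exosc2*, *Exosc7* and *Exosc8*. How many of all genes had libraries apart in this way was not counted. *Exosc3* and *Exosc4* were the 2 members with an unadjusted p under 0.05, where 3475 of all genes were. DESeq2 called *Exosc3* (1.06, adjusted p = 0.0333), where it called 2.72% of all genes higher and 0.699% lower. *Exosc2* (0.71 ± 0.32) and *Exosc8* (0.36 ± 0.16) had adjusted p of 0.312 and 0.299 by edgeR.

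At GVBD 0 of 10 members passed between genotypes by edgeR, beside 0.807% of 19462 genes called higher and 1.73% lower in KO (157 and 337 genes, or 2 and 27 after TMM scaling). All 10 values were again above 0, with a median of 0.68 against 0.23 for all genes, and 8 of 10 were above 0 after TMM scaling (median 0.41 against −0.04). Under spike-in scaling 11809 of all tested genes were above 0. *Exosc5* had 32.2 and 56.7 scaled counts in WT and 200.6 and 247.9 in KO, a log2 fold change of 2.33 ± 0.65 (adjusted p = 0.0606 by edgeR). It was the 1 member with an unadjusted p under 0.05, where 2901 of all genes were. It passed with DESeq2 (adjusted p = 0.0286), which called 2.45% of all genes higher and 2.18% lower. It also passed without the filter on low counts (0.0392 by edgeR), a fit for which the share of all genes called was not counted. *Exosc2* had 234.7 and 209.9 in WT and 740.0 and 260.0 in KO (1.17 ± 0.61, adjusted p = 0.385), and *Exosc6* had 6 and 4 counts in WT and 11 and 37 in KO. Blood markers moved with this comparison. All 8 of them were above 0 in both WT GVBD libraries, where they summed to 2260 to 2440 CPM, and 7 of 8 in both KO GVBD libraries, where they summed to 14.9 to 16.9 CPM with *Ppbp* at 0. The 4 keratinocyte markers summed to 70.0 to 92.8 CPM in WT and 4.27 to 8.25 in KO. Their part in the member values was not tested.

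At MII 0 of 9 tested members passed between genotypes by edgeR or DESeq2, beside 0.501% of 17566 genes called higher and 0.302% lower (88 and 53 genes, or 23 and 20 after TMM scaling), and 0 had an unadjusted p under 0.05. The member median was 0.31, near that of all genes, 0.30. Standard errors ranged from 0.74 to 1.34, so a 2-fold difference was not detectable. With stage as a covariate over all 12 libraries, 0 of 10 members passed by edgeR or DESeq2, beside 0.9% of 22004 genes called higher and 0.364% lower (198 and 80 genes, or 253 and 347 after TMM scaling). All 10 were above 0 (median 0.48 against 0.29 for all genes), and 9 of 10 after TMM scaling. Under spike-in scaling 14526 of all tested genes were above 0. Those with an unadjusted p under 0.05 were *Exosc4* (1.06 ± 0.41, adjusted p = 0.182), *Exosc2* (0.93 ± 0.35, adjusted p = 0.175) and *Exosc7* (0.48 ± 0.23, adjusted p = 0.265 by edgeR). Among all genes 4146 had an unadjusted p under 0.05. This comparison contains the libraries of the 3 by stage.

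**Figure D4:**
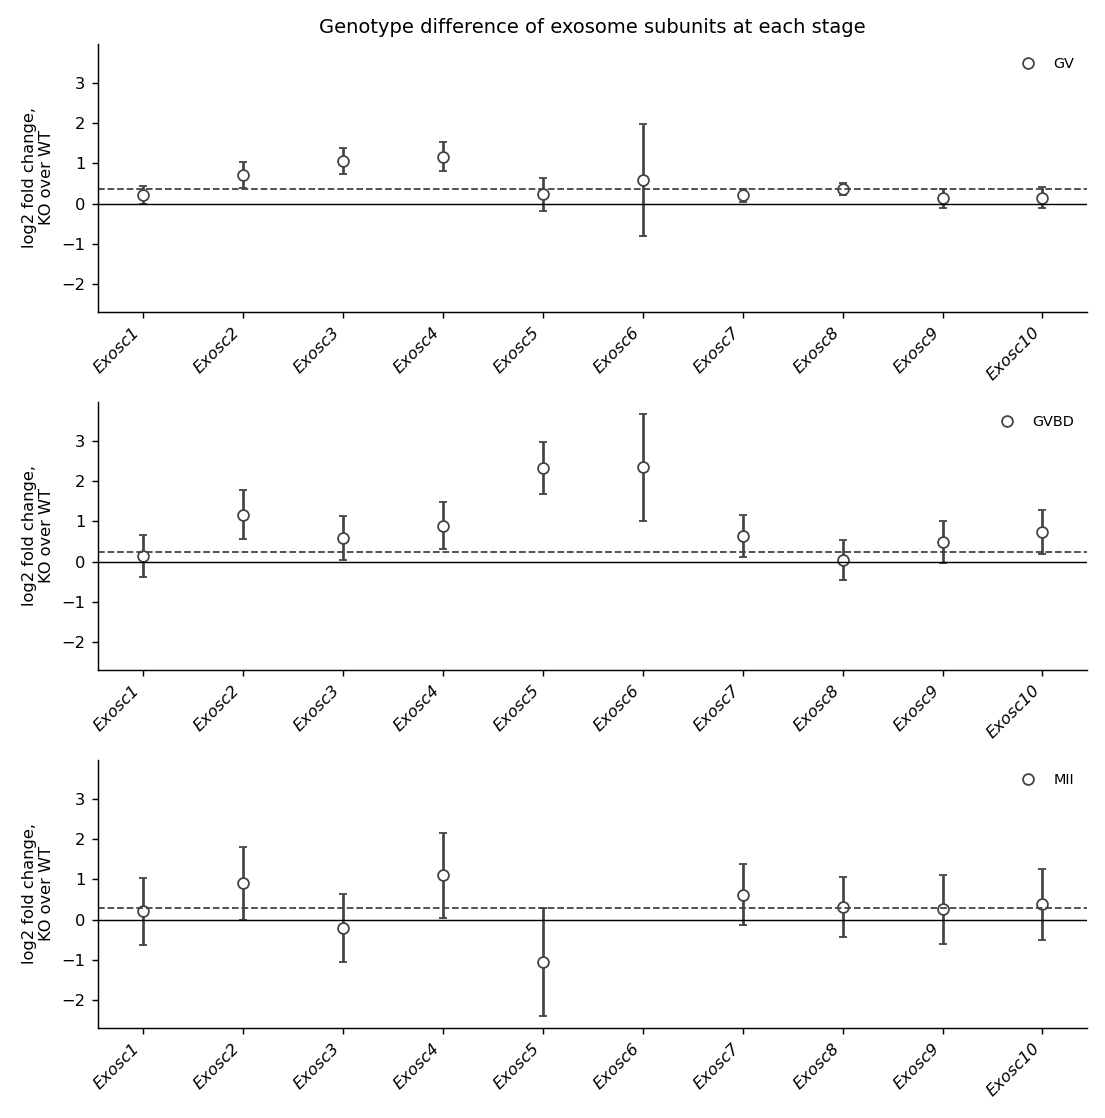
Log2 fold change between KO and WT (points, with SE bars) of each subunit at GV, GVBD and MII by edgeR with spike-in scaling; dashed lines are medians of all tested genes. No point passed the threshold; *Exosc5* at GVBD, 2.33 with an adjusted p of 0.0606, came nearest.

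Partners of the exosome were read from a list of 18 genes that holds its catalytic subunits and its adaptors in nucleus and cytoplasm. Between GV and MII in WT, 4 of 18 fell and 0 rose by edgeR, against the 30.5% of all genes lower. *Dis3l*, the cytoplasmic catalytic subunit, had 550 and 849 counts in WT GV and 374 and 349 in WT MII before scaling. Its scaled means were 924.9 and 233.2 (−1.99 ± 0.54, adjusted p = 0.00138 by edgeR). *Skiv2l*, the helicase of the SKI complex that feeds mRNA to the cytoplasmic exosome, had −1.91 ± 0.64 (adjusted p = 0.0128). *C1d*, which binds EXOSC10, had −1.70 ± 0.56 (adjusted p = 0.0107), and *Rbm7*, an RNA-binding part of the nuclear exosome targeting complex, −1.38 ± 0.51 (adjusted p = 0.0247). For all 4 the MII libraries were below the GV libraries, as they also were for *Dis3*, *Mtrex*, *Zfc3h1* and *Nrde2*. Libraries apart in this way were not counted over all genes. Each of the 4 calls was lost without WT GV replicate 1 (adjusted p 0.08 for *Dis3l*, 0.2 for *Skiv2l*, 0.238 for *C1d*, 0.375 for *Rbm7*), without WT GV replicate 2 (0.191 to 0.498) and without WT MII replicate 2 (0.0516 to 0.11). The values themselves stayed below 0 under each omission, from −2.46 to −1.49 for *Dis3l*, −2.36 to −1.56 for *Skiv2l*, −2.0 to −1.45 for *C1d* and −1.64 to −1.15 for *Rbm7*. *Dis3*, the nuclear catalytic subunit, had 152 and 164 counts at GV and 141 and 155 at MII before scaling. Its scaled means were 205.8 and 93.58 (−1.14 ± 0.64, adjusted p = 0.175 by edgeR).

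The median of the list was −0.33 in WT, against −1.06 for all genes, and 6 of 18 values were above 0. *Mphosph6*, which encodes a protein of the nuclear exosome, had the most counts of the list, 97998 to 656191, and a value of 0.25 ± 0.37 (adjusted p = 0.682 by edgeR). After TMM scaling 11 of 18 were above 0 and the partners called in WT were *Dis3l* as lower and *Mphosph6* and *Hbs1l*, the last a gene linked to the SKI complex, as higher. With median-of-ratios scaling *Dis3l* was no longer called, and *Mphosph6*, *Zc3h18*, *Ttc37* and *Hbs1l* were called higher. Of all genes 8.47% were called higher and 16.2% lower with TMM scaling, and 9.63% higher and 15.8% lower with median-of-ratios scaling. In the KO comparison 0 of 18 partners passed by edgeR (median −0.61 against −1.17), and 3 had an unadjusted p under 0.05. DESeq2 called *Dis3l* and *C1d*, where it called 16.3% of all genes lower and 0.0852% higher. TMM scaling called *Tent4a* and *Zcchc8* higher, where 1.19% of all genes were called higher and 3.87% lower. *Dis3l* had 1103 and 788 counts at GV and 389 and 108 at MII in KO, with scaled means of 1507 and 233.3. Its log2 fold change was −2.69 ± 0.89 (adjusted p = 0.101 by edgeR), and *Dis3* had −1.49 ± 0.84 (adjusted p = 0.298). With replicate 2 alone at MII *Dis3l* (−4.28, adjusted p = 4.79e-07) and *Dis3* (−2.20, adjusted p = 0.00557) passed in KO, as 53.9% of all genes did, and with replicate 1 alone *Dis3l* did (adjusted p = 0.0113 by edgeR). No partner passed between genotypes at any stage or over all stages by edgeR (0 of 18 in each), where 3, 1, 0 and 4 had an unadjusted p under 0.05 at GV, GVBD, MII and over all stages, and DESeq2 called 1, *C1d* at GV. Among all genes 3475, 2901, 1286 and 4146 had such a p in the same order, and DESeq2 called 2.72% higher and 0.699% lower at GV.

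**Figure D5:**
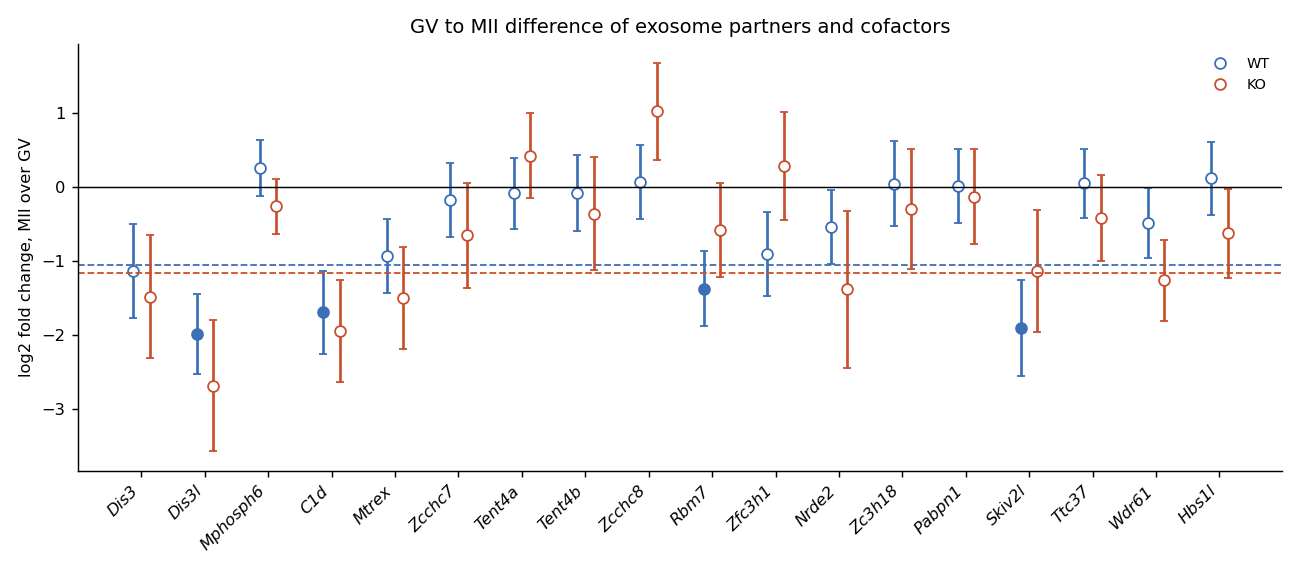
Log2 fold change between MII and GV (points, with SE bars) of 18 exosome partners and cofactors in WT (blue) and KO (orange) by edgeR with spike-in scaling; filled points passed the threshold and dashed lines are medians of all tested genes. *Dis3l* has −1.99 in WT and −2.69 in KO, and the median of the 18 is −0.33 in WT and −0.61 in KO.

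The subunits did not share 1 profile across the libraries. Over the 12 libraries, which differ in stage, genotype and makeup together, the Pearson correlation of log2 TMM-scaled CPM was above 0 in 19 of the 45 member pairs, with a median of −0.10. It was highest for *Exosc5* with *Exosc6* (0.669) and for *Exosc5* with *Exosc4* (0.668), all low ring members, and lowest for *Exosc8* with *Exosc10* (−0.739). *Exosc6* had 0 to 37 counts per library with a median of 4, so its correlations rest on very few counts. Genes among those most like the mean standardised profile of the 10 members, of 10829 compared over the same 12 libraries, were *Trav7n-6* (r = 0.917), *Emx2* (0.894), *Asna1* (0.873) and *Cox4i2* (0.862). These were picked as the highest of many correlations over few libraries, which by itself gives high values. The mean profile gives *Exosc6* the same weight as any other member. *Trav7n-6* belongs to a family of near-identical gene segments, so its counts are uncertain.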

How the data were processed

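The deposited values were raw counts of reads for each gene in each of 12 libraries, beside 92 ERCC sequences. Per the submitters' processing notes, the authors used cutadapt 1.9 for trimming, HISAT2 2.0.4 for alignment to GRCm38/mm10 with ERCC, unique alignments only, and StringTie 1.3.4d; the study's reporting form names other versions of cutadapt and HISAT2. The annotation release and the use of strand are not given in the sources used here. The methods describe poly(A)-primed, PCR-amplified cDNA without molecular identifiers, so floors cover counting error only. The labels describe a bulk preparation instead.

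Symbols matched 52073 of 56691 genes. Each of 9 comparisons was fitted over all genes kept by filterByExpr, with edgeR 4.0.16 under R 4.3.3 (quasi-likelihood F-test, two-sided) and library sizes in proportion to ERCC counts. Calls needed a Benjamini-Hochberg adjusted p under 0.05 over all tested genes and an absolute log2 fold change of at least 1. Other settings were TMM and median-of-ratios scaling, DESeq2 1.42.0 with ERCC size factors, no low-count filter, no fold minimum, a joint model of 12 libraries, a replicate block, and omission of single libraries. The fits were tested on simulated data. Likeness was Pearson's r of log2(CPM + 1) after TMM scaling, for genes averaging 50 counts or more, and genes named for it carry no Gm or Rik name (1 such gene is not reported here). Partners were named where they passed (up to 5 by adjusted p), plus *Dis3* and *Dis3l*, and any other partner was named after its values were seen. The members and lists were chosen with earlier results of these data known. Gene models and sequences were GENCODE M21 on GRCm38, with the APPRIS principal form as the transcript, then the form with the longest coding sequence.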

Additional observations from a re-analysis of the deposited data

Results flagged for a closer look

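*Exosc3* is singled out because its whole groups moved in opposite directions between GV and MII. In WT both MII libraries (881.3 and 673.7 scaled counts) were above both GV libraries (378.5 and 597.9), and in KO both MII libraries (698.6 and 644.7) were below both GV libraries (1171 and 858.6). How many of all tested genes moved in this way was not counted, so the pattern was not read as particular to *Exosc3*. The interaction was −1.27 ± 0.71 on the log2 scale (KO minus WT), with an adjusted p of 1 by edgeR and an unadjusted p of 0.101. Over the settings that leave out 1 library each it ranged from −1.63 to −0.97, with the adjusted p from 0.352 to 1. The direction in KO depends on the scaling: TMM gave 0.64 there, and 1.64 in WT. No group had the 4 libraries needed to test for an outlying library.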

How the results depend on the processing

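Of 515 values recomputed under another setting, 307 of the values for single genes kept their direction and their side of the threshold. Of the others for single genes, 41 lost a call, 30 gained one and 25 changed direction. Among counts of called members, 97 stayed within 1.5 times and 15 did not. The 97 include counts of 0 that stayed at 0, which says little with 2 libraries per group. The members were not always the same: between GV and MII in WT, TMM and median-of-ratios scaling gave 2, *Exosc3* (higher) and *Exosc5*, in place of 3. For KO against WT the count of called members, 0, became 1 at GV with DESeq2 and 1 at GVBD both with DESeq2 and without the low-count filter. For MII against GV in KO it went from 0 to 1 with TMM, with median-of-ratios scaling and without the filter, and to 2 with DESeq2 and with 12 libraries in 1 model. Beside these, 3.87% of all genes were called lower with TMM, 3.77% with median-of-ratios scaling and 16.3% with DESeq2. The share of all genes called was not counted without the filter or with 12 libraries in 1 model. Leaving out 1 library gave 0 to 5 called members between GV and MII in WT and 0 to 5 in KO, and 0 in every other comparison.

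Over all genes DESeq2 called 530 higher and 136 lower at GV against 11 and 8 by edgeR, 260 and 86 at MII against 88 and 53, and 3052 lower between GV and MII in KO against 615, where the replicate block gave 2454. Scaling set the sign of the small GV to MII values, since the median of all genes moved from −1.06 to −0.14 (TMM) and −0.09 (median-of-ratios) in WT and from −1.17 to −0.14 and −0.12 in KO. In WT, TMM and median-of-ratios scaling gave 0.19 and 0.23 for *Exosc1*, 0.43 and 0.48 for *Exosc2*, 0.22 and 0.26 for *Exosc9*, and 0.18 and 0.22 for *Exosc10*, and median-of-ratios scaling gave 0.036 for *Exosc7*. In KO they gave 0.17 and 0.19 for *Exosc1*, 0.84 and 0.87 for *Exosc2*, 0.64 and 0.68 for *Exosc3*, 0.61 and 0.64 for *Exosc7*, 0.54 and 0.57 for *Exosc9*, and 0.46 and 0.48 for *Exosc10*. Omission of single libraries also turned *Exosc2* (−1.24 to 0.13 in WT, −0.89 to 0.26 in KO) and *Exosc10* (−1.60 to 0.16 in KO).

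Libraries share replicate numbers, but deviations of same-numbered libraries correlated between −0.222 and 0.123, so the numbers were not taken as pairs. With the replicate block, 1 member was called for MII against GV in KO, *Exosc5* (adjusted p = 0.0173 by edgeR), 3 in WT and 0 in each other comparison. The block called 13.1% of all genes lower in KO and 26.2% in WT. Crossed numbers, added after the data were seen, gave 0 members at GV and at MII.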
